A study of Mus musculus with 4 samples.

Results

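Phyhip and 2900052N01Rik were the 2 genes, of 32285 in the count files, examined across the brain regions of 4 mouse brain sections. They were picked by symbol because their levels summed over whole sections differed between trained and untrained mice, so the training differences given here are a description of the values that chose them and carry no test. Counts came from Visium slides, on which each capture spot carries its own barcode and takes up mRNA from the few cells above it. The unit is the UMI, a unique molecular identifier that stands for 1 captured mRNA molecule, and levels are UMIs per 1000000 of the same section or region (CPM). The study used adult male mice (3 to 4 months old, C57BL/6 background) of the genotype ArcCreERT2::eYFPflx, and compared memory upkeep after active place avoidance with a control. The 2 trained mice had learned to keep out of a shock zone on a rotating arena, and the 2 untrained mice had met the same arena with the shock turned off. All mice, untrained ones included, received 4-hydroxytamoxifen under isoflurane before a retention test, and tissue was taken 3 days after it. Both alleles were carried by both groups: Cre recombinase that tamoxifen switches on, driven by the Arc promoter, and eYFP at the Rosa26 locus that Cre releases. By this design the reporter is meant to mark cells in which the Arc promoter was active around the injection. Each mouse gave 1 coronal section at the level of the dorsal hippocampus, and the section was the replicate.

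Phyhip encodes phytanoyl-CoA hydroxylase-interacting protein, a protein found mainly in brain. It was named for its binding to Phyh, the peroxisomal enzyme that starts the breakdown of phytanic acid and that is lost in Refsum disease, and it also binds the kinase Dyrk1a and the adhesion receptor Adgrb1 (BAI1). 2900052N01Rik is a long noncoding RNA gene that still carries a RIKEN clone name, with no established function.

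In the GENCODE vM21 annotation of GRCm38, the build of the reference that the methods name, Phyhip (ENSMUSG00000003469) is a protein-coding gene on the plus strand at chr14:70457476-70468832. It has 2 annotated transcripts, of 3 and 5 exons. 2900052N01Rik (ENSMUSG00000099696) is a lincRNA gene on the plus strand at chr9:46913493-46927366, with 3 transcripts of 2 to 4 exons. Neither gene body overlaps another annotated gene. Phyhip lies among close neighbours, the nearest tested one being Bmp1 at 5726 bases, whereas the nearest tested neighbours of 2900052N01Rik are Cadm1 at 602807 bases and Bud13 at 614383 bases.

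RefSeq promoter windows matched 1 of the 2 genes, 2900052N01Rik, whose window is shown as the sequence around the start of a member. It is the RefSeq window on GRCm38.p6, chr9:46913353-46913652, plus strand, read from 250 bases before to 50 after the RefSeq start, with a CCAAT box on the opposite strand in capitals. The RefSeq start lies inside the GENCODE gene body, downstream of the start given above.
2900052N01Rik promoter: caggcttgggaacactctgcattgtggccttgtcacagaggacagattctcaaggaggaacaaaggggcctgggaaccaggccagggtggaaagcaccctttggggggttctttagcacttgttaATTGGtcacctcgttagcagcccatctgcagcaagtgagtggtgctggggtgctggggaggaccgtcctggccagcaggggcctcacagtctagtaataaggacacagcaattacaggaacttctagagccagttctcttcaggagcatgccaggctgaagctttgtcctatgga
The window had 54.7% G and C, beside a median of 52.7% over 32851 promoter windows, and 2 CpG pairs beside a median of 7. Searched on both strands, the letters CCAAT were found once, as they were at least once in 37.4% of promoters. TATAAA, which 13.6% of promoters held, and TGACGTCA, which 1.79% held, were not among the letters of this window.

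The 4 sections held 2359 to 3055 spots over tissue and 3560294 to 10330015 UMIs, with untrained 1 the shallowest at a median of 1048 UMIs per spot. Trained 1 and untrained 2 were close in depth, at medians of 1936 and 1851. The labels give hippocampus as the tissue, but a section covered most of a hemisphere, and the pyramidal and granule cell layers of the hippocampus made up 180 to 193 spots. Untrained 1 stood apart from the other sections. It had 8.14% of its spots in the cortical layers against 13.6% to 14.3%, and 12.6 CPM of Gt(ROSA)26Sor, the transcript read here as eYFP, against 122 to 220.3. Its Arc level was 50.0 CPM against 134 to 140.03 in the others. Trained 2 differed in mitochondrial UMIs, at 6.83% against 11.6% to 12.2%.

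Phyhip was lower over the whole section in trained than in untrained mice. Its level was 59.7 CPM in trained 1, 56.6 in trained 2, 133 in untrained 1 and 110.5 in untrained 2. The groups did not overlap, and the means were 58.2 ± 2.16 and 122 ± 15.6 CPM (SD, n = 2 sections each). The log2 fold change of trained over untrained was -1.14 with an SE of 0.13, from the quasi-likelihood fit of edgeR over all genes.

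2900052N01Rik was lower in trained mice by a wider margin. It stood at 35.8 CPM in trained 1, 34.5 in trained 2, 109.8 in untrained 1 and 103 in untrained 2. The sections of a group were close together and the groups far apart, with means of 35.1 ± 0.956 and 106 ± 5.14 CPM (SD, n = 2 each). Its log2 fold change was -1.67 with an SE of 0.12. In the log2 fold changes of all genes, 49 genes were below Phyhip and 16 below 2900052N01Rik.

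These were the 2 genes that edgeR called at an adjusted p under 0.05, or 0.0145% of the 13810 genes tested, which is the basis on which they were picked. Without adjustment 1099 genes of this fit had p under 0.05, and with DESeq2 the calls numbered 71 (0.514%), both members among them. Both trained sections lay below both untrained sections in 12.1% of all genes. With 2 sections a group, the smallest two-sided permutation p is 0.333, so that a permutation over sections could not reach the threshold for any gene. Nothing in the labels or methods names an independent repeat beyond the mouse. The p-values of edgeR rest on the spread between these 4 sections, drawn towards that of all genes with 8.15 prior degrees of freedom. In the fits of CA3 and of eYFP and Arc spots that prior was infinite, so the spread was taken from all genes.

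**Figure D1:**
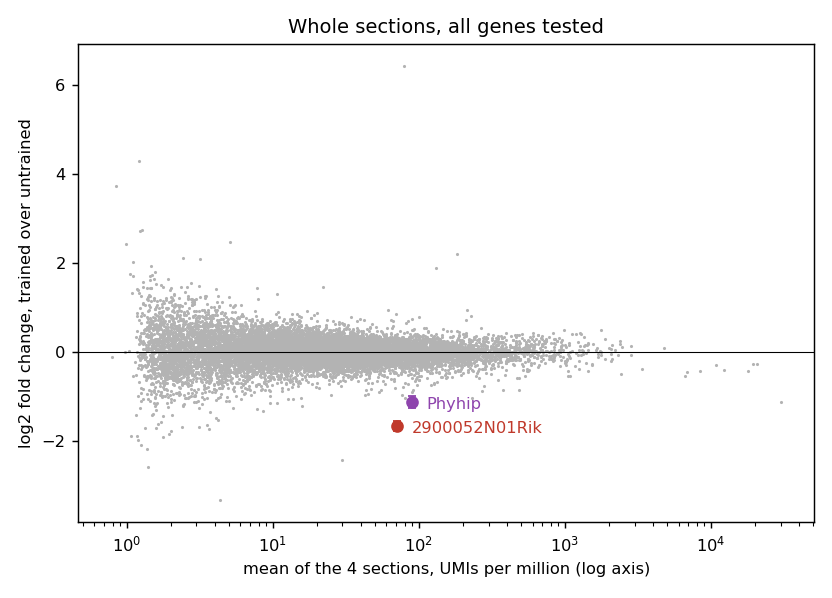
Log2 fold change of trained over untrained sections (y axis) against the mean level of the 4 sections in UMIs per 1000000 (x axis, log scale) for the 13810 genes tested, each a grey point. Phyhip and 2900052N01Rik are in colour with their SE, at -1.14 and -1.67, below nearly all genes of like level.

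Depth moved with training, since the trained sections were the deeper ones on average. With every section thinned to the smallest total, the log2 fold changes were -1.10 for Phyhip and -1.69 for 2900052N01Rik. Bc1, an abundant dendritic small RNA, also moved, at 22566 and 16448 CPM in trained against 47765 and 33729 in untrained sections. With Bc1, Ttr, Gm42418 and the mitochondrial genes left out before normalization the values were -1.14 and -1.68. Between trained 1 and untrained 2, the sections of like depth, Phyhip went from 59.7 to 110.5 CPM and 2900052N01Rik from 35.8 to 103.

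The part of untrained 1 was seen by leaving it out. Without it the log2 fold change of Phyhip was -0.999 and the gene no longer met the threshold. That of 2900052N01Rik was -1.62, and it still met it. The range over the 4 sections left out in turn was -1.27 to -0.999 for Phyhip and -1.76 to -1.59 for 2900052N01Rik.

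Most spots held no UMI of either gene, and no spot held more than 6 UMIs of one of them. Phyhip was seen in 13.1% of spots in trained 1 (95% exact binomial interval 11.9% to 14.4%), 14.9% in trained 2, 16.2% in untrained 1 and 20.9% in untrained 2. For 2900052N01Rik the shares were 7.89%, 10.05%, 13.9% and 19.5% in the same order, and for both genes both untrained shares were above both trained shares. A share rises with depth, so spots were also brought to 500 UMIs each, which left out 264, 226, 538 and 236 shallower spots. The Phyhip shares then were 2.97% and 2.70% in trained against 6.12% and 4.85% in untrained sections. Those of 2900052N01Rik were 1.81% and 1.69% against 5.20% and 5.12%. Both genes were found in the same spot in 41, 74, 89 and 168 spots of trained 1, trained 2, untrained 1 and untrained 2. In a spot, fewer cells that make a transcript and less of it per cell cannot be told apart.

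**Figure D2:**
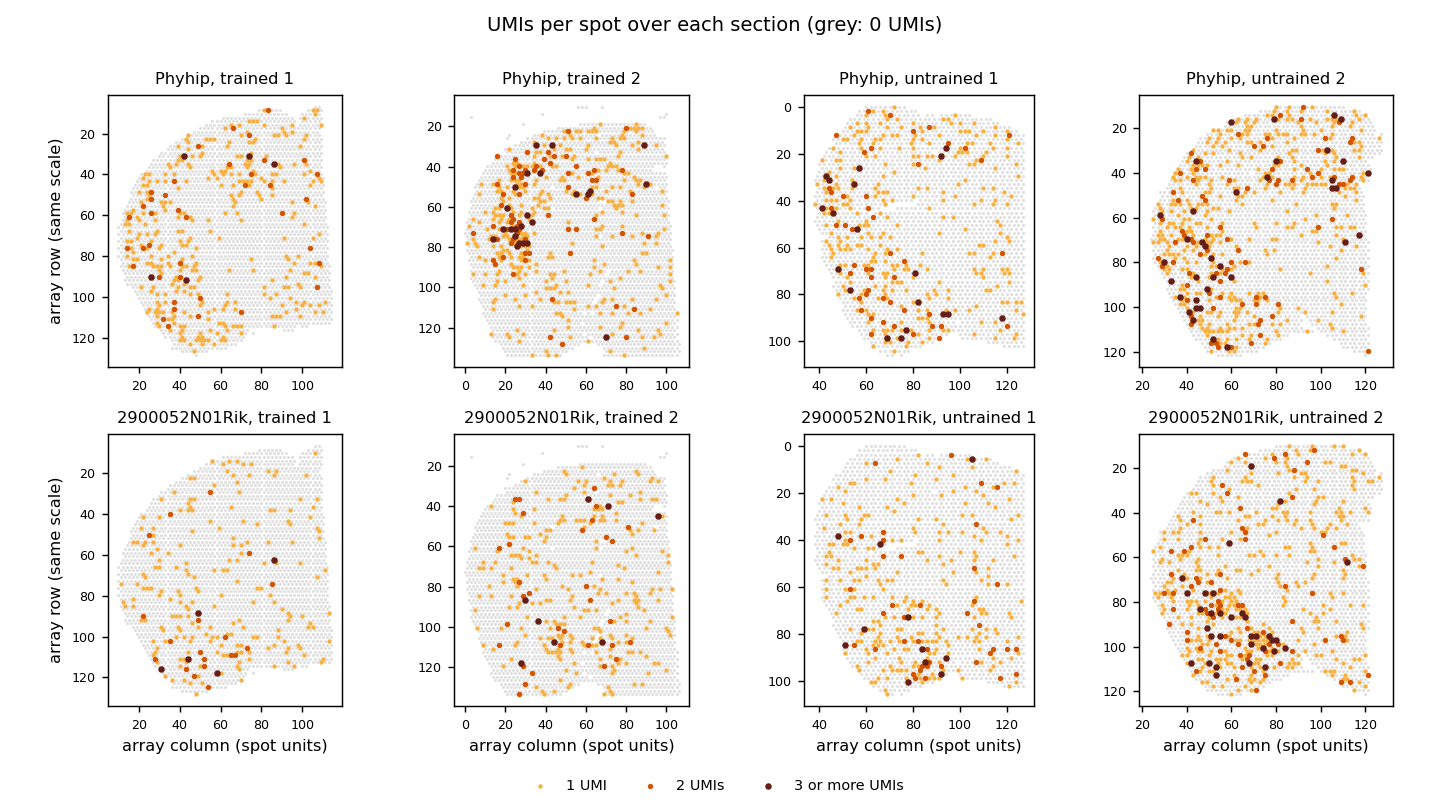
UMIs of Phyhip (top row) and 2900052N01Rik (bottom row) in each spot of the 4 sections, with array column and row as axes at 1 scale. Grey spots had 0 UMIs and darker, larger points had more, with Phyhip in 375, 454, 382 and 556 spots and 2900052N01Rik in 226, 307, 327 and 520 spots from left to right.

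Regions were drawn from marker genes. Spots were given to the list of region markers that led them, and 12 regions had at least 20 spots in every section. The hippocampal layers and the cortical layers were also summed, as were the spots that no list led, which held 34.9% of the Phyhip and 39.0% of the 2900052N01Rik UMIs.

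Phyhip had its higher levels in the forebrain neuron layers and the striatum. Averaged over the 4 sections its level was 143 CPM in the striatum, 136 in upper-layer cortex, 134 in CA3 pyramidal, 129 in DG granule and 121 in CA1 pyramidal spots. Neighbours in this order were not set apart, since each was above the next in 2 or 3 of the 4 sections. Layer 6 cortex followed at 113 CPM, the meninges at 100.5 and layer 5 cortex at 89.0. The hypothalamus had 72.3 CPM, and it lay above the thalamus in all 4 sections. The lowest regions were the thalamus at 42.6, the white matter at 41.8 and the medial habenula at 40.8 CPM, which were not ordered in all 4 sections. The striatum, upper-layer cortex, CA1, CA3, DG and layer 6 were above the thalamus, white matter and medial habenula in every section, trained and untrained alike.

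2900052N01Rik had another order of regions. Over all 4 sections the meninges had the highest mean, 119 CPM, on 35 UMIs in all and with a range from 25.4 to 264, the last on 6 UMIs of untrained 1. The hypothalamus, at 105 CPM, and the striatum, at 93.8, came next, and the hypothalamus was above the striatum in 3 of 4 sections. The striatum was above the white matter, at 69.3 CPM, in all 4 sections. DG granule spots had 59.6, layer 5 cortex 55.4, the thalamus 49.5, upper-layer cortex 48.2, layer 6 cortex 45.6 and the medial habenula 43.7 CPM, each above the next in 1 to 3 of the 4 sections. CA1 at 40.6 and CA3 at 38.4 CPM had the lowest means, and CA1 was above CA3 in 1 section. The order differed between groups at both ends: the striatum at 48.3 CPM came before the meninges at 45.7 in trained sections, where CA1 at 14.9 was last, and the medial habenula at 57.7 was last in untrained sections. The hypothalamus was above CA1, CA3, all cortical layers, the thalamus, white matter and medial habenula in every section.

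**Figure D3:**
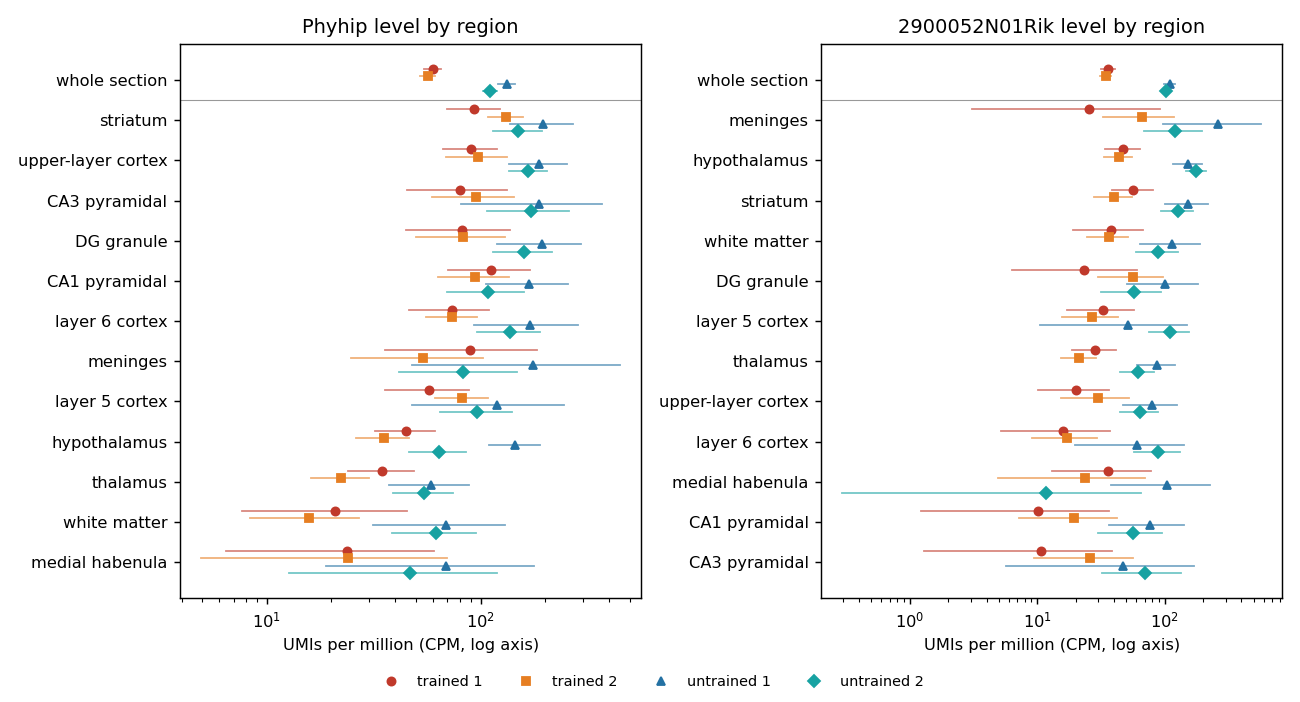
Level of Phyhip (left) and 2900052N01Rik (right) in UMIs per 1000000 (x axis, log scale) in the whole section and in 12 regions, ordered by the mean of the 4 sections. Each point is 1 section and its bar the exact 95% Poisson interval, which covers counting error only. Both trained points lie below both untrained points in 10 regions for Phyhip and in 11 for 2900052N01Rik.

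The 2 genes did not share a regional pattern. Over the 48 sums of section and region, on log2(CPM + 1) with each section centred, their Pearson r was -0.04. The points share sections and depth, so that r is a description, as are those that follow. Among 7653 genes with a mean of at least 20 CPM, the genes most like Phyhip were Kcnip2, a subunit of A-type potassium channels, at r = 0.91, and Chrm1, the M1 muscarinic acetylcholine receptor, at 0.89. Arf3, a small GTPase of the Golgi, followed at 0.87, and then Ppp3r1 and Ppp3ca, subunits of the calcium-dependent phosphatase calcineurin, both at 0.86. The genes most like 2900052N01Rik were less alike. They were Nova1, a neuronal splicing regulator, at 0.67, Gad2, which makes GABA, at 0.64, Abl1, a tyrosine kinase, at 0.62, Slc1a3, an astrocyte glutamate transporter, at 0.61, and Edem2, which acts on misfolded glycoproteins in the endoplasmic reticulum, at 0.61.

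Both genes were lower in trained mice in every region by the mean of the sections. The untrained mean was above the trained mean in 12 of 12 regions for each gene, by 1.34 to 3.58 times for Phyhip and by 1.94 to 4.52 times for 2900052N01Rik. Both trained sections were below both untrained sections in 10 regions for Phyhip and in 11 for 2900052N01Rik. As many regions or more were found for 0.0434% of the 13810 genes beside Phyhip and for 0.0217% beside 2900052N01Rik. The 4 other genes among these, named after their values were seen, were AY036118 and Bc1 with 12 regions and Cdk5r2 and Gm42418 with 10. Regions of 1 section come from 1 mouse and are not repeats of each other. They are also parts of the sections whose values chose the genes. The counts of regions, and the calls by region given below, thus describe the choice and do not test it.

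In the hippocampus, the tissue the study was about, the training values are given by layer. Phyhip in CA1 pyramidal spots was at 112 CPM in trained 1, 94.5 in trained 2, 169 in untrained 1 and 108 in untrained 2. Trained 1 lay above untrained 2, so the groups overlapped, and the log2 fold change was -0.38 with an SE of 0.32. In DG granule spots Phyhip was at 82.2 and 83.0 CPM in trained against 193 and 159 in untrained sections, without overlap, beside 20.7% of genes that did not overlap in that direction there. In CA3 pyramidal spots it was at 80.5, 95.02, 187 and 172 CPM, again without overlap, beside 16.7% of genes. The log2 fold changes were -0.96 (SE 0.33) in DG and -0.997 (SE 0.41) in CA3, and -0.78 (SE 0.21) over the 3 layers together, where 17.1% of genes did not overlap in that direction.

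2900052N01Rik was scarce in the same layers, on 31 UMIs in CA1, 19 in CA3 and 43 in DG over all sections. In CA1 it was at 10.2 and 19.6 CPM in trained against 76.7 and 56.2 in untrained sections, without overlap, beside 15.3% of genes, with a log2 fold change of -1.998 (SE 0.67), or -1.69 without trained 1 and -2.61 without trained 2. In CA3 the 4 levels were 10.7, 25.9, 46.7 and 70.2 CPM, and the counts were too low for the filter of the fit. In DG they were 23.5, 56.8, 101 and 56.9 CPM, and trained 2 and untrained 2 differed by less than counting error, although the region counts among the 11. The log2 fold change was -0.64 (SE 0.51). It ran from -0.14 without trained 1 to -1.58 without trained 2, with -0.33 without untrained 1, and was -1.71 with regions drawn from clusters of spots. Over the 3 layers the levels were 14.5, 32.6, 81.6 and 59.4 CPM and the log2 fold change -1.42 (SE 0.36), or -1.01 without trained 1 and -2.22 without trained 2.

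In the cortical layers together, a sum added after seeing the data, both genes were lower in trained sections, as in the values that chose them. Phyhip was at 76.2 CPM in trained 1, 82.0 in trained 2, 173 in untrained 1 and 142 in untrained 2, and 2900052N01Rik at 22.9, 23.4, 70.4 and 81.6. Neither gene overlapped between groups, as was true of 10.6% of genes tested there. The log2 fold changes were -1.06 (SE 0.19) and -1.85 (SE 0.25), and edgeR called both genes, where it called 0.0293% of 10242 genes lower. With the sums thinned to the smallest total the values were -1.36 and -1.17, and neither gene was called. By DESeq2 2900052N01Rik was called there and Phyhip was not. By layer, Phyhip differed by -1.002 (SE 0.23) in upper-layer cortex, -1.06 (SE 0.28) in layer 6 and -0.58 (SE 0.33) in layer 5. Both genes were without overlap in the 3 layers, as were 11.8%, 13.4% and 13.9% of genes in upper-layer cortex, layer 6 and layer 5. In layer 5 Phyhip was at 57.6 and 82.3 CPM in trained against 119 and 96.7 in untrained sections, on 7 UMIs in untrained 1. 2900052N01Rik differed by -1.58 (SE 0.36), -2.34 (SE 0.44) and -1.84 (SE 0.41) in these layers. Its layer 5 value rested on untrained 2, at 110.5 CPM against 51.2 in untrained 1, and was -0.81 without untrained 2. With regions drawn from clusters the layer 6 values were -0.74 for Phyhip and -1.60 for 2900052N01Rik.

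In the hypothalamus the groups were far apart in 2900052N01Rik. It was at 47.2 CPM in trained 1, 43.6 in trained 2, 153 in untrained 1 and 177 in untrained 2, with a log2 fold change of -1.95 (SE 0.21). The groups stood more than 3 times apart and were close within, beside 14.1% of genes without overlap in that direction, and edgeR called the gene where it called 0.0636% of 9438 genes lower. The region is part of the sections whose values chose the gene, so this call is no test of it. Phyhip was at 44.9, 35.3, 146 and 63.7 CPM there. Its untrained sections differed from each other by more than untrained 2 differed from trained 1, the log2 fold change was -1.36 (SE 0.31), and it was -0.76 without untrained 1 and -1.96 without untrained 2.

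The striatal spots gave a smaller difference for Phyhip than for 2900052N01Rik. Phyhip was at 93.5, 131, 196 and 150.3 CPM in trained 1, trained 2, untrained 1 and untrained 2, a log2 fold change of -0.60 (SE 0.23). The groups did not overlap, as for 15.5% of genes, but trained 2 was closer to untrained 2 than to trained 1. 2900052N01Rik was at 56.9, 39.7, 152 and 127 CPM, a log2 fold change of -1.59 (SE 0.28), and edgeR called it where it called 0.12% of 7514 genes lower. Without trained 2 that value was -1.18, and with the sums thinned to the smallest total it was -1.18 as well, and the gene was called in neither.

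In the thalamus Phyhip stood at 34.8, 22.3, 58.8 and 54.5 CPM and 2900052N01Rik at 28.4, 21.3, 86.9 and 61.4, in the same order of sections. Neither gene overlapped between groups there, beside 13.3% of genes, with log2 fold changes of -1.11 (SE 0.30) and -1.64 (SE 0.29). Without trained 2, that of Phyhip was -0.69. White matter spots, led by myelin genes, were among the lowest in Phyhip, at 20.8, 15.7, 68.6 and 62.0 CPM on 6 to 21 UMIs a section. Its log2 fold change there, -1.96 (SE 0.46), was the lowest of its regional values. 2900052N01Rik in white matter was at 38.1, 36.3, 114 and 88.6 CPM, or -1.46 (SE 0.35), and 14.8% of genes did not overlap in that direction.

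The remaining regions had few UMIs. In the meninges Phyhip was at 89.0, 53.9, 176 and 83.1 CPM and overlapped, and 2900052N01Rik at 25.4, 65.9, 264 and 121 without overlap, beside 10.5% of genes. Its log2 fold change there was -1.68 (SE 0.61), or -1.39 without trained 1, -2.62 without trained 2 and -0.81 with regions drawn from clusters. The 3 counts taken as the limit of a count of 0 amounted to 132 CPM in the meninges of untrained 1, so the order there is not firm. In the medial habenula both genes had 15 and 16 UMIs over all sections, and 2900052N01Rik ranged from 11.7 CPM in untrained 2 to 104 in untrained 1, across the trained values of 35.6 and 23.9. Phyhip was at 23.8, 23.9, 69.1 and 46.6 CPM without overlap, beside 13.4% of genes. Choroid plexus spots were too few for a fit, and trained 1 had 0 UMIs of 2900052N01Rik in 42 spots there, which allows up to 25.5 CPM, beside 87.2 CPM in untrained 2. The spots that no list led gave differences close to those of the whole section, -1.21 (SE 0.16) for Phyhip and -1.40 (SE 0.16) for 2900052N01Rik. Both were called there, where edgeR called 0.0342% of 11710 genes lower and 12.7% did not overlap in that direction.

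**Figure D4:**
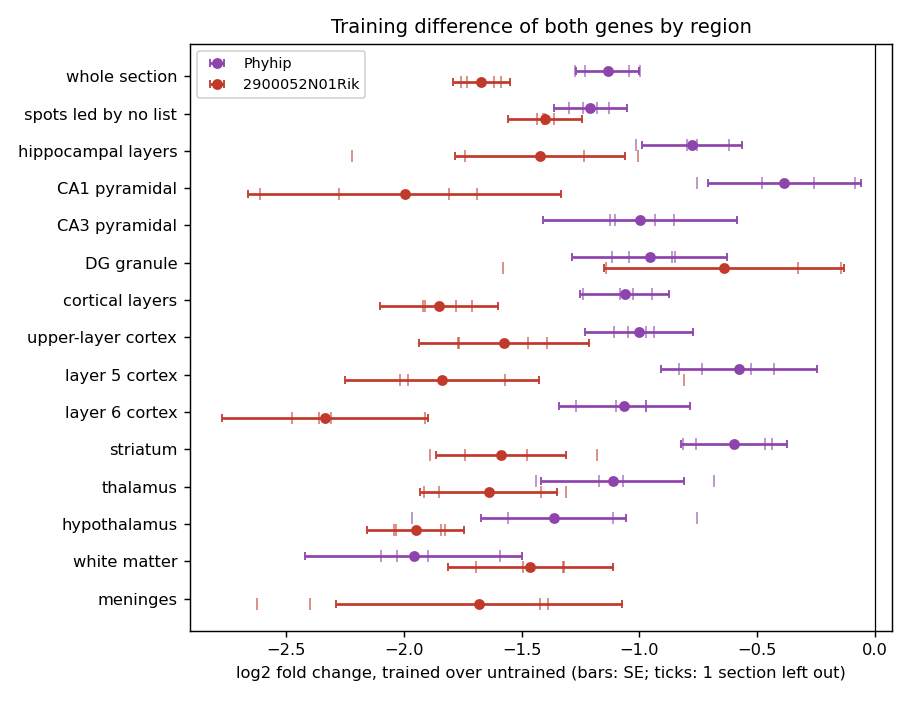
Log2 fold change of trained over untrained (x axis) for Phyhip and 2900052N01Rik in the whole section, in pooled layers and in the regions where the counts allowed a fit. Bars are SEs and ticks are the values with 1 of the 4 sections left out, all of which are below 0.

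Whether the training difference itself varied between regions was tested in 1 edgeR fit over the 48 sums of 12 regions, with the section as a block. The interaction did not pass for Phyhip, at an adjusted p of 0.956, nor for 2900052N01Rik, at 0.9999, while 0.369% of 8942 genes passed. The regional values of a gene therefore were not set apart by this test, which does not show that they were equal. Leaving out a section gave unadjusted p from 0.0441 to 0.881 for Phyhip and from 0.0492 to 0.974 for 2900052N01Rik, and neither gene was called in any of these fits.

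Spots with and without eYFP gave a comparison that the choice of the genes had not used. The hippocampal layers held 50 eYFP+ spots of 180 in trained 1, 57 of 187 in trained 2, 5 of 183 in untrained 1 and 77 of 193 in untrained 2, eYFP+ meaning at least 1 UMI of Gt(ROSA)26Sor as in the methods of the study. Over all tissue such spots numbered 673, 899, 45 and 944 in the same order. Whether these UMIs came from eYFP released by Cre was not tested. Phyhip in eYFP+ spots was at 110.5, 117, 97.4 and 140.1 CPM, and in eYFP- spots at 80.4, 71.4, 184 and 147. It was higher in the eYFP+ spots of both trained sections and lower in those of both untrained sections, where untrained 1 had 1 UMI. The exact Poisson intervals of Phyhip in the 2 classes overlapped in each section. The log2 fold change of eYFP+ over eYFP-, with the section as a block, was 0.19 (SE 0.21, adjusted p = 0.979 by edgeR), and that of 2900052N01Rik was -0.09 (SE 0.36, adjusted p = 0.996). Neither was called, where 0.573% of 5582 genes were. Under the other settings the values ranged from -0.26 to 0.39 for Phyhip and from -0.45 to 0.18 for 2900052N01Rik, so both changed sign. 2900052N01Rik had 0 UMIs in the eYFP+ spots of trained 1 and 12 in those of trained 2, against 8 and 13 in their eYFP- spots. eYFP+ spots were the deeper ones, at 4344 against 2583 UMIs per spot in trained 1, and its part in these values was not tested, since after thinning both genes were below the filter.

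Spots with and without Arc, the immediate early gene whose promoter drives Cre, were compared in the same way. Phyhip was at 85.3, 124, 196 and 149.7 CPM in the Arc+ spots and at 98.3, 60.8, 177 and 139 in the Arc- spots, higher in Arc+ spots in 3 of 4 sections. 2900052N01Rik was at 0, 26.9, 35.7 and 57.2 CPM in the Arc+ spots and at 27.1, 38.0, 92.9 and 60.6 in the Arc- spots, lower in Arc+ spots in all 4 sections. The Poisson intervals of 2900052N01Rik in the 2 classes overlapped in each section, trained 1 had 0 UMIs in 52 Arc+ spots, and untrained 1 had 2 UMIs in 13. The log2 fold changes were 0.24 (SE 0.19, adjusted p = 0.710 by edgeR) and -0.73 (SE 0.35, adjusted p = 0.378), so neither passed, beside 2.12% of 5283 genes that did. Under the other settings they ranged from -0.035 to 0.42 for Phyhip and from -0.97 to 0.18 for 2900052N01Rik, so both changed sign. Over all spots of the tissue, a choice made after seeing the data, edgeR called both beside 15.8% of all genes, Phyhip higher in Arc+ spots at 0.42 (SE 0.08, adjusted p = 1.8e-04) and 2900052N01Rik lower at -0.32 (SE 0.09, adjusted p = 0.0073). Regions differ in both Arc and the members, and Arc+ spots were the deeper ones, in the hippocampal layers at 4961, 6104, 4310 and 4732 UMIs per spot against 2305, 3134, 1329 and 2731. The part of region and of depth in those 2 values was not tested.

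**Figure D5:**
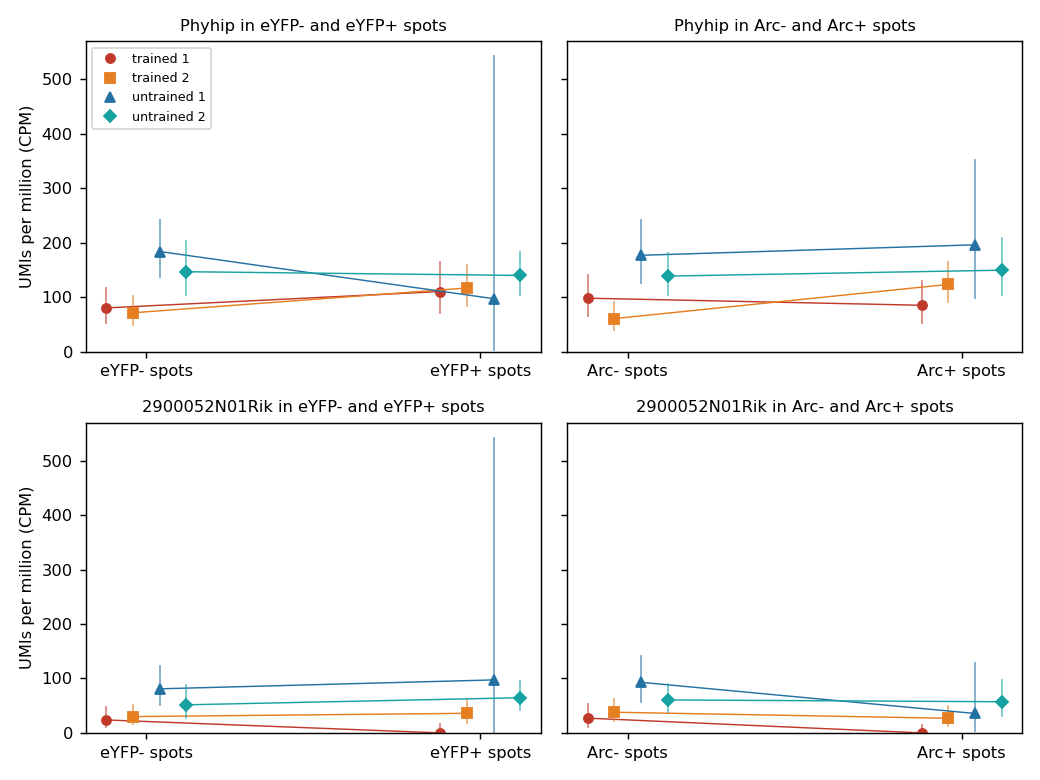
Level in UMIs per 1000000 (y axis) of Phyhip (top) and 2900052N01Rik (bottom) in eYFP- and eYFP+ spots (left) and Arc- and Arc+ spots (right) of the hippocampal layers. Each line joins the spots of 1 section and bars are exact 95% Poisson intervals. For Arc all 4 lines of 2900052N01Rik go down from Arc- to Arc+, and in the other panels the lines run in both directions.

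Relatives and partners of Phyhip were not called. Phyhipl, the paralog of Phyhip, was at 193 and 171 CPM in trained against 183 and 198 in untrained sections, and its log2 fold change was -0.14 (SE 0.13). Phyh, the binding partner that gave the gene its name, was at 100.1, 133, 99.1 and 114 CPM, Dyrk1a at 50.8, 50.9, 53.1 and 50.9, and Adgrb1 at 536, 601, 505 and 500.2. Phyhd1, an enzyme related to Phyh, was at 11.8, 19.2, 17.7 and 14.3 CPM. The groups overlapped for 4 of these 5 genes, Adgrb1 was higher in both trained sections by 0.10 on the log2 scale (SE 0.11), and edgeR called 0 of them, with 0 at an unadjusted p under 0.05 and 0 by DESeq2. Their median log2 fold change was -0.09, beside 0.01 over all 13810 genes.

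The wider pathway gave no call either. Of 20 tested genes of peroxisomal fatty acid oxidation edgeR and DESeq2 called 0, with 1 at an unadjusted p under 0.05 in edgeR and in DESeq2, and the median was 0.15. The range ran from -0.57 for Decr2, a reductase for unsaturated fatty acids, to 0.35 for Acot8, a peroxisomal thioesterase. Of 15 peroxisome assembly genes both tools called 0, edgeR with 0 at an unadjusted p under 0.05, and the median was 0.04. In the hippocampal layers the relatives had a median of -0.12 and in the cortical layers 0.02, without a call in either. Phyhipl was at 166 and 123 CPM in trained against 177 and 213 in untrained hippocampal layers, without overlap, as for 17.1% of genes in that direction. Its log2 fold change was -0.48, and it was the 1 relative with an unadjusted p under 0.05 there, beside 477 of all 8361 genes.

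Markers of the cell types in the section were set beside the members. The 15 pan-neuronal genes summed to 11385 and 11293 CPM in trained against 11664 and 11529 in untrained sections, with a median log2 fold change of -0.10, 10 genes below 0 and 5 above. The 10 astrocyte genes had a median of -0.01 and the 9 microglial genes one of -0.07. The 8 oligodendrocyte genes summed to 4199, 7044, 4613 and 4661 CPM, high in trained 2, with a median of 0.29. The 4 blood genes tested had a median of -0.19 and the 8 interneuron genes one of 0.08. Of these lists edgeR called 0 genes, and without adjustment p was under 0.05 for 3 pan-neuronal, 1 astrocyte, 2 oligodendrocyte, 1 microglial, 4 interneuron and 0 blood genes. The 3 pan-neuronal ones were lower in trained sections: Camk2a, a kinase of excitatory neurons, at -0.59, Nrgn, a calmodulin-binding protein of excitatory neurons, at -0.43 and Map2, a dendritic microtubule protein, at -0.35 on the log2 scale. The interneuron genes went both ways, 4 above 0 and 4 below. Those with an unadjusted p under 0.05 were Sst, the neuropeptide somatostatin, at -0.58, Gad1, which makes GABA, at 0.30, Slc32a1, which loads GABA into vesicles, at 0.33, and Pvalb at 0.81. The call by DESeq2 took in 1 gene of the lists, Pvalb of parvalbumin interneurons, at 250.3 and 342 CPM in trained against 156 and 162 in untrained sections. In the hippocampal layers the medians were 0.39 for interneuron genes, 0.36 for oligodendrocyte, 0.32 for microglial, 0.20 for astrocyte and -0.05 for pan-neuronal genes. In the cortical layers they were 0.52 for oligodendrocyte, 0.18 for interneuron, -0.26 for microglial, -0.16 for astrocyte and -0.03 for pan-neuronal genes. There 4 oligodendrocyte, 2 interneuron, 1 astrocyte, 1 pan-neuronal and 0 microglial genes had an unadjusted p under 0.05, beside 618 of all 10242 genes. In the hippocampal layers 3 interneuron, 2 oligodendrocyte, 2 astrocyte, 1 pan-neuronal and 0 microglial genes did, beside 477 of all 8361. The part of these markers in the members' differences was not tested.

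The neighbours of the 2 genes on the chromosome were not called. Around Phyhip, Bmp1 was at 31.2, 36.0, 41.6 and 33.3 CPM (log2 fold change -0.21), Polr3d differed by -0.12 and Lgi3 by 0.38. Around 2900052N01Rik, Cadm1, an adhesion molecule of synapses, was lower in both trained sections, at 99.3 and 70.2 against 119 and 106 CPM (-0.49, SE 0.18, adjusted p = 0.584 by edgeR). Zpr1 on the other side differed by 0.37 in the opposite direction. Of the 12 nearest tested neighbours, none differed by as much as either member.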

How the data were processed

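Spatial transcriptomics was done on Visium slides with 1 section from each of 2 trained and 2 untrained mice. The methods name Space Ranger v2.0.0 and the mm10 reference, the file header names Space Ranger 1.2.2, and the submitters' processing notes list Cell Ranger 8, STAR and GRCm39. The authors deposited raw UMI counts per gene and spot, with no normalization, and gene IDs were matched to GENCODE vM21 (32158 of 32285). The members and all gene lists were chosen with earlier results of these data known. Named besides the members were the relatives and partners, list genes that were called or at the ends of a list, the 5 genes most alike and the nearest neighbours. The pan-neuronal and interneuron genes with an unadjusted p under 0.05 were named after their values were seen.

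Spots with at least 100 UMIs were given to the region whose marker genes led (mean z of at least 0.5, lead of at least 0.2, touching spots weighted 0.25, at least 2 touching spots of the same region). Counts were summed per section and region and compared by the quasi-likelihood test of edgeR 4.0.16 (low counts filtered by filterByExpr, TMM normalization, p adjusted by Benjamini-Hochberg over all genes, threshold 0.05), with 2 residual degrees of freedom, and by DESeq2 1.42.0 (R 4.3.3). The edgeR fit was also run on simulated whole-section and thalamus counts, with the same dispersion for every gene. The outcome is not given here. Intervals are exact and cover counting error only. Alternatives were other normalization, filters, thinning, regions from 30 k-means clusters (scikit-learn 1.9.0), a wider marker lead of 0.6, a replicate block and sections left out. Pooled layers, equal region totals, all spots and the interaction were added after seeing the data. Section images and nuclei were not used here.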

Additional observations from a re-analysis of the deposited data

How the results depend on the processing

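All 161 training differences of the 2 genes under another setting and all 112 with a section left out were below 0, in the whole section, the pooled layers and the regions, and 145 and 87 of them moved by no more than 1 SD of the sections on the log2 scale. Those that moved by more were, with regions from clusters, Phyhip in CA1 (-0.76), DG (-1.31), layer 6 (-0.74) and white matter (-1.50), and 2900052N01Rik in DG (-1.71), layer 6 (-1.60), meninges (-0.81) and white matter (-1.15). With the sums thinned to the smallest total they were Phyhip in layer 6 (-1.26), upper-layer cortex (-0.81) and the cortical layers (-1.36), and 2900052N01Rik in the striatum (-1.18), the cortical layers (-1.17) and the spots that no list led (-1.49). With the wider marker lead they were 2900052N01Rik in the hypothalamus (-2.23) and Phyhip in upper-layer cortex (-1.16). The cause was not tested, beyond the fewer counts that thinning leaves. All of these training differences reuse the sections that chose the genes, and the regions are parts of the whole sections. Their shared sign is therefore no independent support.

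With 1 section left out, Phyhip ranged from -1.27 to -0.999 in the whole section, -0.75 to -0.087 in CA1, -1.13 to -0.85 in CA3, -1.11 to -0.85 in DG, -1.27 to -0.97 in layer 6, -1.44 to -0.69 in the thalamus, -2.10 to -1.59 in white matter, -1.01 to -0.62 in the hippocampal layers, -1.24 to -0.95 in the cortical layers and -1.30 to -1.13 in the spots that no list led. 2900052N01Rik ranged from -1.76 to -1.59 in the whole section, -2.61 to -1.69 in CA1, -1.58 to -0.14 in DG, -2.04 to -1.83 in the hypothalamus, -2.02 to -0.81 in layer 5, -2.47 to -1.91 in layer 6, -2.62 to -1.39 in the meninges, -1.89 to -1.18 in the striatum, -1.69 to -1.32 in white matter, -2.22 to -1.01 in the hippocampal layers and -1.92 to -1.71 in the cortical layers. A lone section left in a group was assumed to vary like the other group.

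The eYFP and Arc differences changed sign. At 2 or more UMIs for a positive spot, Phyhip was at -0.26 for eYFP and -0.0071 for Arc, and 2900052N01Rik at 0.028 and 0.18. With a section left out, the eYFP values ranged from -0.014 (without trained 2) to 0.39 for Phyhip and from -0.45 to 0.18 (without trained 1) for 2900052N01Rik, and the Arc value of Phyhip from -0.035 (without trained 2) to 0.37. Over all spots the Arc values passed the threshold, at 0.42 and -0.32. With section and region as the block 2900052N01Rik, and after thinning of spots both genes, were below the filter.

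Counts of genes called moved more. For whole sections 2 became 71 with DESeq2, 211 without the filter, 47 with the replicate block, 5 with regions scaled to equal totals, and 2 to 848 with a section left out, 848 without trained 1, 40 without trained 2 and 8 without untrained 2. For eYFP 32 became 19, 14, 83, 0, 1 and 118 with DESeq2, no filter, 2 UMIs, thinned spots, no section block and all spots, and 10 to 55 with a section left out. For Arc 112 became 27, 66, 36, 0, 0 and 1985 in the same order, 26 with section and region as the block, and 52 to 110 with a section left out.

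Same-numbered sections did not deviate together (r = 0.018 over 13810 genes), and the replicate block gave -1.13 for Phyhip and -1.67 for 2900052N01Rik over whole sections. Counts limit the smaller regions, since the CA3, habenular and meningeal values rest on 1 to 22 UMIs of a gene in a section.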
